A study of Mus musculus with 6 samples.

Results

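The 9 genes described here mark the germinal centre reaction and its products. Bcl6, Mef2b, S1pr2 and Gcsam are known from germinal centre B cells, Cr2 from follicular dendritic cells and mature B cells, and Prdm1, Mzb1, Sdc1 and Pou2af1 from plasma cells or the B cells that form them. They were taken by symbol from the deposited gene counts, where all 9 were found among 29721 listed genes, and all 9 were among the 17652 genes that passed the filter on low counts. Mef2b and Mzb1 passed it through their knockout libraries, since they had only 4 to 47 and 7 to 19 counts in the wild-type ones.

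RNA sequencing was used to measure transcripts in pancreas of Ela-myc mice aged 3 months, which carry Myc under the elastase promoter of acinar cells and are used as a model of pancreatic tumours. All animals carried this transgene. The groups were 3 animals with wild-type Parp2 (WT) and 3 animals labelled PARP2 KO, in which the gene of a DNA-damage sensing ADP-ribosyltransferase had been inactivated, each library coming from a different animal. The labels give neither the knockout allele nor the part of the organ that was taken, and the protocols speak of tumours while the tissue label is pancreas. The submitters' own name for this set of counts calls it preneoplastic.

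Germinal centres form in lymphoid follicles when activated B cells divide, mutate their antibody genes and compete for antigen shown on follicular dendritic cells with help from follicular T cells. BCL6 is the repressor that holds B cells in this state, and PRDM1, also called BLIMP1, is the repressor that ends it and drives plasma cell formation. Normal pancreas holds few such cells, but lymph nodes and fat lie close against it. The counts here come from whole tissue, so a higher share of a cell type and more RNA per cell cannot be told apart.

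Depth was between 28105021 and 32055565 counts per library. Parp2 itself stood at 12.4 to 14.4 CPM (counts scaled to a common library size by edgeR's TMM factors) in knockout against 36.4 to 40.5 CPM in wild type, below it in 3 of 3 libraries but not at 0. Digestive enzyme genes, the defining product of acinar cells, made up 23.0% to 29.9% of wild-type counts, but 4.36%, 14.6% and 0.0178% in knockout replicates 1, 2 and 3, so that the last was nearly without the labelled tissue's main transcripts. All 26 of these genes were tested, and 25 of them had counts in every library. None of the 26 was called in the edgeR comparison below, although the median of their log2 fold changes was -2.39. WT replicates 1 and 2 and KO replicate 1 were male by their Y-linked transcripts, and the other libraries female.

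Of the 9 genes 7 were higher and 1 lower in knockout, by edgeR's quasi-likelihood test with adjusted p under 0.05 over all genes tested. The genes that rose were Bcl6, Mef2b, Cr2, Gcsam, Prdm1, Mzb1 and Pou2af1, and the gene that fell was Sdc1. This comparison moved a large part of the transcriptome: 28.0% of all genes tested were higher and 25.0% lower by the same rule, so a call by itself was common. The median log2 fold change was 0.02 over all genes tested and 2.57 over the 9, which include Mef2b and Mzb1, tested only because of their knockout levels. Over the other 7 genes it was 1.31. With library totals as the only scaling the shares of all genes were 42.3% higher and 12.2% lower. That scaling raised the median of all genes by 0.40 on the log2 scale and turned the split of calls from 52.8% higher to 77.6% higher, and the 9 genes still gave 7 higher and 1 lower.

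**Figure D1:**
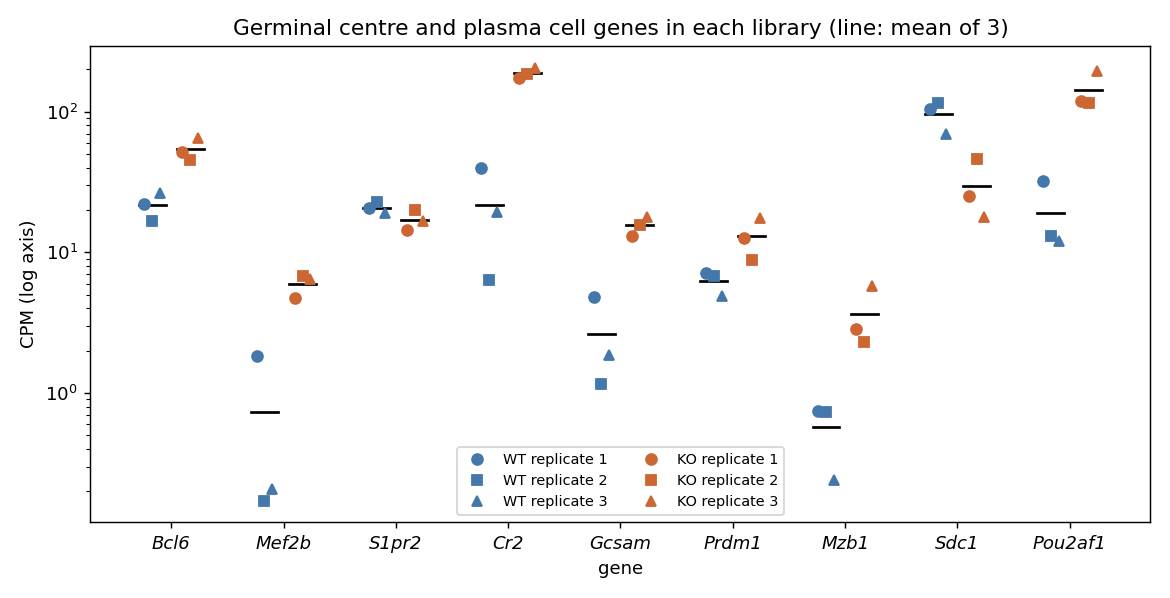
Level of each of the 9 genes in each library, in CPM on a log axis, with 3 wild-type (WT, blue) and 3 Parp2 knockout (KO, orange) libraries and a line at each group's mean. The groups stand apart for every gene but S1pr2, with knockout above for 7 genes and below for Sdc1.

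CPM of the groups did not overlap for 8 of the 9 genes, with knockout above wild type for 7 and below it for 1. Over all genes tested, 34.4% had knockout wholly above and 33.7% wholly below wild type.

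Among the germinal centre genes, Mef2b, which encodes a transcription factor that activates Bcl6, was nearly silent in wild type outside 1 animal. It lies on chromosome 8 (70139711 to 70167488, plus strand, GRCm38), and 62 bases (4.42%) of its exons are shared with Borcs8 on the same strand, so a few of its reads may belong to that gene. Its RefSeq start site has the promoter shown here, because it is the only one of those examined that held the octamer, the sequence read by the OCT factors for which Pou2af1 encodes the coactivator. The window chr8:70152511-70152810 (GRCm38.p6, plus strand, 250 bases before to 50 after the start) has the octamer ATGCAAAT in capitals.

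Mef2b promoter: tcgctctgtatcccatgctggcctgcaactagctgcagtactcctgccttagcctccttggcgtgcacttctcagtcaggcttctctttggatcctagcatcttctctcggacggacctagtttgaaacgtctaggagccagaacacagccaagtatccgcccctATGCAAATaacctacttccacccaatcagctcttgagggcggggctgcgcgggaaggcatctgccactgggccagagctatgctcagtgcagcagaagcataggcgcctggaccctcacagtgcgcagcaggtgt

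The octamer starts at position -85 from that RefSeq start site, which lies inside the gene bounds given above. Of 32851 RefSeq promoters of the same length, 1.74% held this sequence on either strand. Mef2b had 1.84, 0.172 and 0.207 CPM in the 3 wild-type libraries and 4.73, 6.75 and 6.42 CPM in the 3 knockout libraries. All knockout libraries were above all wild-type ones, and WT replicate 1 stood well above the rest of its group. The log2 fold change was 3.01 (SE 0.887, adjusted p = 0.0314 by edgeR). That call was lost when any library other than WT replicate 1 was left out, with edgeR adjusted p between 0.0522 and 0.0727, and with sex as a term in the fit (edgeR adjusted p = 0.0651). Without WT replicate 1 the log2 fold change was 4.94.

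Bcl6, the master repressor of the germinal centre, rose less steeply from a much higher level. It lies on chromosome 16 (23965052 to 23988852, minus strand) and had 22.0, 16.8 and 26.6 CPM in the wild-type animals against 51.7, 45.7 and 64.7 CPM in the knockouts. The lowest knockout library stood clearly above the highest wild-type one, and no library stood far from its group. The mean went from 21.8 ± 4.86 to 54.0 ± 9.72 CPM (SD over 3 libraries each), with log2 fold change 1.31 (SE 0.206, adjusted p = 0.0043 by edgeR). Bcl6 is also expressed outside B cells, among others in follicular T cells, macrophages and fat cells.

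Bcl6 has a pair of RefSeq start sites, and the promoter of the one inside the gene is shown because BCL6 is known to repress its own gene through sites near its start. The window is chr16:23981234-23981533 (GRCm38.p6, minus strand), with matches to the BCL6-like letters TTCCNNGAA and to the ETS-IRF composite motif in capitals.

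Bcl6 inner promoter: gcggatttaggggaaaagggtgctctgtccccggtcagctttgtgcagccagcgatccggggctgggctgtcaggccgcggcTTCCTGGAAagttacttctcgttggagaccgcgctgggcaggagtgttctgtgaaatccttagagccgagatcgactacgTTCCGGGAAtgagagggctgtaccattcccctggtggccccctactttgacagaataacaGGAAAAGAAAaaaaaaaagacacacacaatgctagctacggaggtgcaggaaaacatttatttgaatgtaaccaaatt

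TTCCNNGAA matched at positions -168 and -88, in both orientations each time, and 4.81% of all promoters held it. The composite, the joint site of PU.1 and IRF4 in B cells, matched at position -28, and 2.72% of all promoters held it. In the other promoters GAGGAA matched in the outer Bcl6, Gcsam, Prdm1 and Sdc1 windows, and none of the motifs matched for Cr2 or S1pr2. A match describes these letters and is not a measured binding site.

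Gcsam, which encodes a signalling adaptor that restrains germinal centre B cell movement, rose with a spread among wild-type animals like that of Mef2b. Its locus is on chromosome 16 (45610380 to 45622867, plus strand). Wild-type libraries held 4.81, 1.16 and 1.86 CPM, and knockout libraries 13.1, 15.7 and 18.0 CPM. WT replicate 1 was again the highest of its group, while the knockout libraries lay close together. The log2 fold change was 2.57 (SE 0.527, adjusted p = 0.00983 by edgeR), and the call held without any 1 library (edgeR adjusted p up to 0.036).

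S1pr2, the sphingosine-1-phosphate receptor that keeps B cells inside the germinal centre, was the only one of the 9 that was not called. Its locus is on chromosome 9 (20962361 to 20976781, minus strand), and the receptor is also known from endothelium and other non-lymphoid cells. Its level was 20.5, 22.8 and 19.0 CPM in the wild-type animals against 14.5, 20.01 and 16.7 CPM in the knockouts. The ranges overlapped, KO replicate 2 lying inside the wild-type range. The log2 fold change was -0.29 (SE 0.148, adjusted p = 0.142 by edgeR). It turned to 0.11 with library totals as the only scaling (edgeR adjusted p = 0.497) and passed the threshold without KO replicate 2 (-0.42, edgeR adjusted p = 0.0408). The change of sign is that of the 0.40 by which library totals raised the median of all genes, and relative to that median S1pr2 was lower under both scalings.

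Of 20 other germinal centre B cell genes, 19 were listed and tested, and 16 rose and 1 fell. Their median log2 fold change was 1.91. The genes of smallest p were Lmo2 (log2 fold change 1.28, SE 0.106), Cd38 (1.91, SE 0.20), Irf8 (2.11, SE 0.226) and Sh2b2 (1.86, SE 0.203), with edgeR adjusted p between 0.00201 and 0.00219. These 4 are shared with other B cells or with myeloid cells, and Cd38 is not a marker of germinal centre B cells in mice. Plxnb2, a plexin receptor gene expressed widely in epithelium, was the gene of the list that fell (-0.86, SE 0.169, edgeR adjusted p = 0.00792), named here after its value was seen.

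Cr2 encodes complement receptor 2, which traps complement-coated antigen on follicular dendritic cells and lowers the activation threshold of B cells. The gene is on chromosome 1 (195136811 to 195176716, minus strand). Wild-type libraries had 39.5, 6.32 and 19.5 CPM, and knockout libraries 175, 185 and 206 CPM. Wild-type values differed widely from animal to animal and knockout values hardly at all. The mean rose from 21.8 ± 16.7 to 189 ± 15.9 CPM (SD over 3 libraries each), with log2 fold change 3.12 (SE 0.644, adjusted p = 0.0111 by edgeR). In this fit 1.40% of all genes tested rose more steeply than Cr2. Cr2 had a larger log2 fold change than Mef2b here, but not with limma-voom (3.43 against 3.77), limma on the deposited log2 values, sex as a term or without WT replicate 1.

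Of 16 other follicular dendritic cell genes 10 rose and 2 fell, the median of their log2 fold changes being 1.12. Those of smallest p were the adhesion molecule gene Icam1 (log2 fold change 1.36, SE 0.112), Mfge8, whose product marks dying cells for uptake (1.72, SE 0.145), the ectoenzyme gene Bst1 (1.73, SE 0.181) and Vcam1 (1.65, SE 0.194), with edgeR adjusted p between 0.00201 and 0.0024. All of these are also expressed by other stromal or endothelial cells. Cxcl13, the chemokine that draws B cells into follicles and a defining product of this cell type, had 31.0, 91.3 and 18.8 CPM in the wild-type animals against 88.4, 111 and 62.0 CPM in the knockouts. These ranges overlapped because of WT replicate 2. Cxcl13 was not called (log2 fold change 0.89, SE 0.608, edgeR adjusted p = 0.254) but passed the threshold without that library (edgeR adjusted p = 0.0187). The genes that fell were Clu and Sox9, both also of duct or injured pancreatic epithelium, and both calls were lost without WT replicate 1, WT replicate 2 or KO replicate 1 (edgeR adjusted p up to 0.135 and 0.105), that of Clu also without KO replicate 3 and that of Sox9 also without WT replicate 3.

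Pou2af1 encodes OCA-B, the B cell coactivator of octamer-binding factors that germinal centres need to form. It maps to chromosome 9 (51213708 to 51240080, plus strand). Its promoter is shown because the gene had the highest level per length of the 9 in knockout. The window chr9:51213440-51213739 (GRCm38.p6, plus strand) held none of the octamer, BCL6, PRDM1 or MEF2 motifs (ATGCAAAT, TTCCNNGAA, GAAAGTG and the MEF2 core), and its single match to the ETS letters GAGGAA, which 28.3% of all promoters held, is in capitals.

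Pou2af1 promoter: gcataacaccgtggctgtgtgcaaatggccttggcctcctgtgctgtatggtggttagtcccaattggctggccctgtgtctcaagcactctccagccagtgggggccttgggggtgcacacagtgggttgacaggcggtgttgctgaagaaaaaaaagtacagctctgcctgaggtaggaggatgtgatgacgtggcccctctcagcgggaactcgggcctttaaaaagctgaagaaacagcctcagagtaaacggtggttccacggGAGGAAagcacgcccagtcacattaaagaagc

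Pou2af1 had 32.4, 13.0 and 12.1 CPM in the wild-type animals against 119, 116 and 196 CPM in the knockouts. WT replicate 1 was the highest wild-type library and KO replicate 3 the highest knockout one. The mean rose from 19.1 ± 11.5 to 143 ± 45.3 CPM (SD over 3 libraries each), with log2 fold change 2.90 (SE 0.476, adjusted p = 0.00544 by edgeR).

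Prdm1, the repressor that drives plasma cell formation, had the smallest rise of the 7 in the fit of all 6 libraries. It lies on chromosome 10 (44437177 to 44528501, minus strand) and is also active in T cells, macrophages and some epithelia. Its level was 7.12, 6.75 and 4.93 CPM in the wild-type animals against 12.7, 8.84 and 17.6 CPM in the knockouts. The groups were apart by little, KO replicate 2 being close to the wild-type range. The log2 fold change was 1.06 (SE 0.287, adjusted p = 0.0226 by edgeR). The call was lost without WT replicate 2, WT replicate 3 or KO replicate 1 (edgeR adjusted p = 0.056, 0.0649 and 0.0611). With the digestive enzyme level as a covariate the log2 fold change was 0.58 (edgeR adjusted p = 0.142).

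Mzb1 encodes an endoplasmic reticulum protein that helps antibody chains to assemble in plasma cells, marginal zone B cells and plasmacytoid dendritic cells. It maps to chromosome 18 (35647267 to 35649367, minus strand), and 57.2% of its exonic bases are shared with SPATA24 on the same strand, so its counts depend on how shared reads were assigned, which is not given in the sources used here. It was read by 19, 17 and 7 counts in the wild-type animals (0.744, 0.731 and 0.241 CPM) and by 106, 73 and 223 counts in the knockouts (2.87, 2.30 and 5.73 CPM). KO replicate 3 was the highest and WT replicate 3 the lowest. Mzb1 rose with log2 fold change 2.68 (SE 0.556, adjusted p = 0.00947 by edgeR), a call that held when any 1 library was left out. Of 10 plasmacytoid dendritic cell genes 5 rose and 2 fell, with a median log2 fold change of 0.002. The defining receptor gene Siglech rose from 6.67 ± 5.82 CPM to 72.5 ± 14.1 CPM (SD, n = 3; adjusted p = 0.00941 by edgeR). Bst2 and Upb1 fell (log2 fold changes -1.12 and -1.375, SE 0.23 and 0.416, edgeR adjusted p = 0.0095 and 0.0323). The call of Bst2 held without any 1 library. That of Upb1 was lost without WT replicate 1, WT replicate 2, KO replicate 1 or KO replicate 3. The summed level of that list was 1312 to 3167 CPM in wild type and 448 to 1536 CPM in knockout. Klk1, a kallikrein gene also known from exocrine glands, made up 936 to 2664 CPM of it in wild type and 2.11 to 1061 CPM in knockout. The part of these cells in the Mzb1 value was not tested.

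Sdc1, which encodes the surface proteoglycan syndecan-1, is the usual surface marker of plasma cells but is also made by most epithelia. It lies on chromosome 12 (8771323 to 8793715, plus strand) and had 104, 116 and 69.7 CPM in the wild-type animals against 25.1, 46.5 and 17.9 CPM in the knockouts. Every knockout library was below every wild-type one, KO replicate 2 being nearest. The log2 fold change was -1.70 (SE 0.394, adjusted p = 0.0151 by edgeR), lost without WT replicate 2 or KO replicate 1 (edgeR adjusted p = 0.05 and 0.0619). Of 12 epithelial genes 3 fell by edgeR, Krt19, Krt7 and Spint1, the median over all 12 being -2.49 on the log2 scale, while 9 fell without KO replicate 3 and 7 without KO replicate 2. Those 3 calls were lost without any 1 wild-type library or KO replicate 1 (edgeR adjusted p up to 0.139). The summed level of these 12 was 1351 to 2284 CPM in the wild-type animals against 191, 682 and 27.2 CPM in knockout replicates 1, 2 and 3, and the 6 libraries had the same order for Sdc1 as for this sum. The epithelial adhesion gene Cdh1 and Epcam were detected in all libraries, down to 3.37 and 3.57 CPM in KO replicate 3. With the digestive enzyme level as a covariate the log2 fold change of Sdc1 was -1.14 (edgeR adjusted p = 0.0371). The share of digestive enzyme counts was lower in every knockout library than in every wild-type one, so this fit cannot fully separate it from genotype. The part of acinar or other epithelium in the Sdc1 value was not tested.

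**Figure D2:**
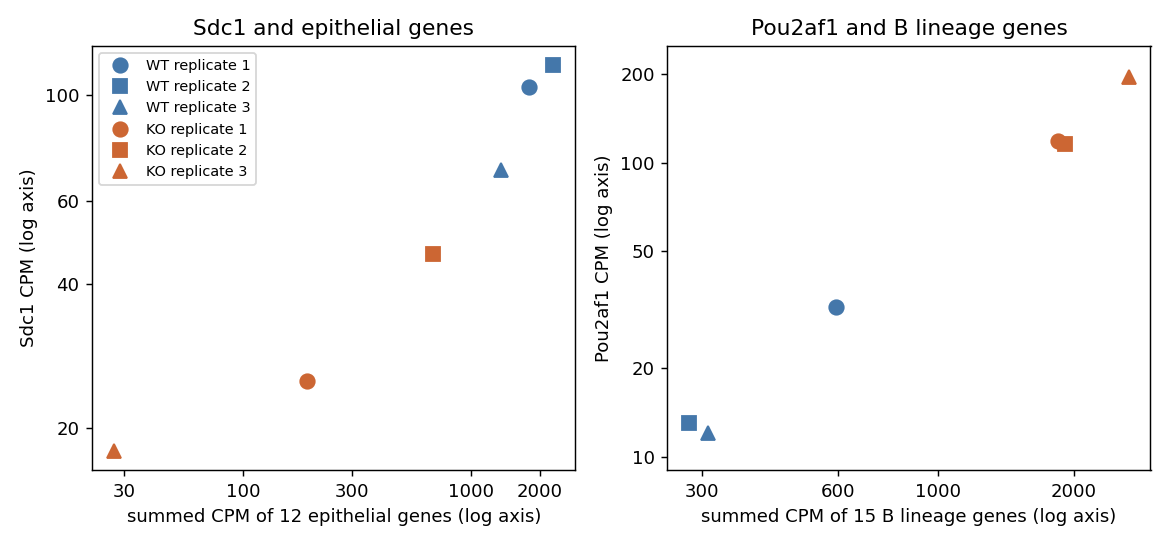
Sdc1 against the summed level of 12 epithelial genes (left) and Pou2af1 against that of 15 B lineage genes (right), in CPM on log axes, 1 point per library. Sdc1 and the epithelial sum rank the 6 libraries in the same order, and Pou2af1 lies between 12.1 and 32.4 CPM in wild type and between 116 and 196 CPM in knockout.

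Other plasma cell genes were divided. Of 20 tested, 9 rose and 10 fell, the median of their log2 fold changes being -0.74. The 4 of smallest p all rose, with edgeR adjusted p between 0.00201 and 0.0026. Irf4, the transcription factor of plasma cell fate, had a mean of 18.6 ± 3.65 CPM in wild type against 96.6 ± 17.9 CPM in knockout (SD, n = 3 each). The surface protein genes Slamf7 and Ly6c2 and the receptor gene Tnfrsf13b, which encodes TACI, had log2 fold changes of 1.58, 1.62 and 2.23 (SE 0.181, 0.190 and 0.268). Jchain, which joins IgA and IgM into polymers, had 191, 178 and 64.1 CPM in the wild-type animals against 516, 400 and 600 CPM in the knockouts. Tnfrsf17, the survival receptor BCMA of plasma cells, had 0.509, 0.602 and 0.344 CPM against 2.84, 1.64 and 2.54 CPM. Knockout was above wild type in every library for both, and both rose by edgeR (log2 fold changes 1.81 and 2.27, SE 0.43 and 0.347, adjusted p = 0.0161 and 0.00393). The 10 that fell, named after their values were seen, were Xbp1, Derl3, Txndc5, Tent5c, Ell2, Creld2, Sec11c, Ssr4, Edem1 and Herpud1. Most of these serve protein folding, export or degradation in the endoplasmic reticulum of any secretory cell, acinar cells included. Xbp1, the driver of that machinery, fell from 469 ± 57.3 CPM to 248 ± 60.3 CPM (SD, n = 3; adjusted p = 0.0103 by edgeR). The call of Herpud1 was lost without any library but KO replicate 2 (edgeR adjusted p up to 0.146). The part of cells other than plasma cells in the rises and in the falls of this list was not tested.

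Antibody constant genes, the product of these cells, were higher for 7 of 12, the median log2 fold change of the 12 being 2.26. Ighm, of the IgM class, had 451, 643 and 281 CPM in the wild-type animals against 1571, 1337 and 2147 CPM in the knockouts. Igha, of the mucosal IgA class, had 418, 417 and 162 CPM against 1054, 921 and 1346 CPM. Both were higher in all knockout libraries and rose by edgeR (log2 fold changes 1.88 and 1.74, SE 0.346 and 0.391, adjusted p = 0.00652 and 0.0129). Ighg2b, of a switched IgG class, had 278, 14.9 and 28.2 CPM in the wild-type animals against 522, 381 and 511 CPM in the knockouts. WT replicate 1 was the highest wild-type library for Ighg2b, but the highest was WT replicate 2 for Ighg1 (38.7, 42.8 and 5.55 CPM) and WT replicate 3 for Ighg3 (28.0, 1.504 and 43.7 CPM). Ighg2b was not called (log2 fold change 2.14, SE 1.11, edgeR adjusted p = 0.151) and passed the threshold without WT replicate 1 (edgeR adjusted p = 0.00615).

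**Figure D3:**
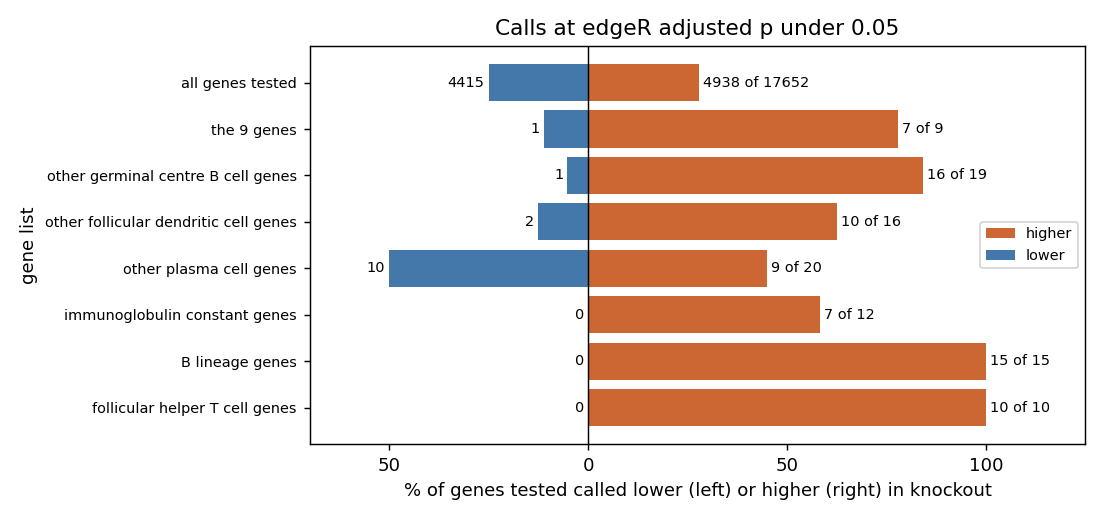
Share of the genes tested in each list that was called higher (right, orange) or lower (left, blue) in knockout at edgeR adjusted p under 0.05, with the counts beside the bars. The plasma cell list is divided, 9 higher and 10 lower, while the B lineage list has 15 of 15 higher.

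All 15 B lineage genes rose, the median of their log2 fold changes being 2.70, and their summed level was 282 to 595 CPM in wild type and 1843 to 2643 CPM in knockout. Of 12 follicular helper T cell genes 10 were tested and all 10 rose, with a median of 2.78. Il4 and Ascl2 were too low to be tested, and Ascl2 lay lower in knockout (0.352, 0.860 and 0.517 CPM in the wild-type animals against 0.135, 0.189 and 0.128 CPM in the knockouts). Those of smallest p were Sh2d1a, the adaptor needed for T cell help, Icos, Cxcr5 and Pdcd1. Icos, the costimulator of these cells, had 5.87, 2.45 and 4.89 CPM in the wild-type animals against 37.0, 22.5 and 43.4 CPM in the knockouts (edgeR adjusted p = 0.00333). The part of a larger lymphocyte content in the calls of the 9 genes was not tested by these values.

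**Figure D4:**
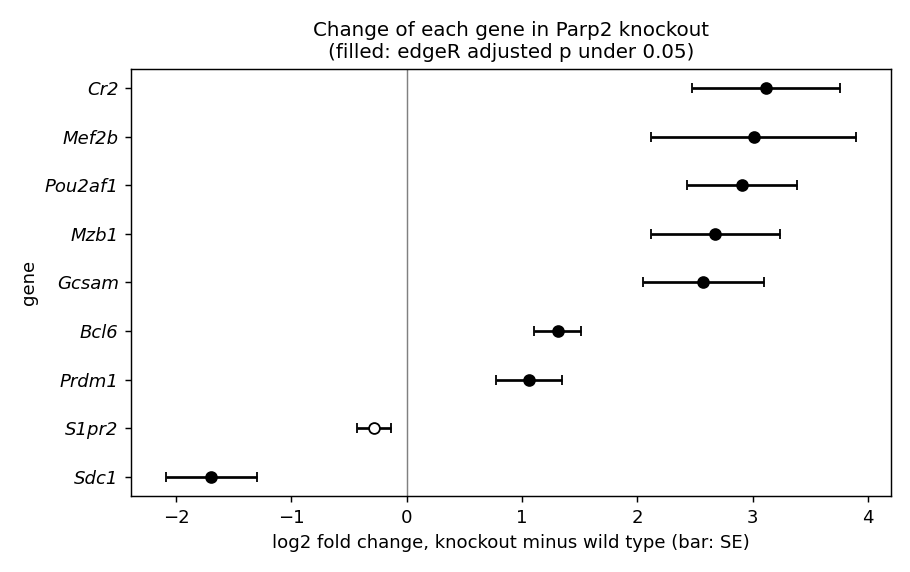
Log2 fold change of each of the 9 genes, knockout minus wild type, with its SE as a bar, filled where edgeR adjusted p was under 0.05. Cr2, Mef2b, Pou2af1, Mzb1 and Gcsam lie between 2.57 and 3.12, Bcl6 and Prdm1 at 1.31 and 1.06, S1pr2 (open) at -0.29 and Sdc1 at -1.70.

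Levels were compared between genes per length, as CPM per kilobase of merged exons. In wild type Sdc1 led with 25.3 ± 6.27, followed by Pou2af1 with 7.51 ± 4.49, Bcl6 with 3.25 ± 0.725, Cr2 with 2.68 ± 2.06 and S1pr2 with 2.61 ± 0.241 (SD, n = 3 each). Prdm1, Gcsam, Mef2b and Mzb1 had means between 0.471 and 1.12, each overlapping the next in that order, while Prdm1 lay wholly above Mzb1. In knockout Pou2af1 led with 56.2 ± 17.8, then Cr2 with 23.3 ± 1.96, Bcl6 with 8.06 ± 1.45 and Sdc1 with 7.82 ± 3.90. In wild type only Sdc1 and Pou2af1, Pou2af1 and Bcl6, and S1pr2 and Prdm1 were neighbours without overlap. In knockout the ranges of Pou2af1, Cr2 and Bcl6 did not overlap, those of Bcl6 and Sdc1 did. There Gcsam, Mef2b, Mzb1, Prdm1 and S1pr2 followed at 4.54 to 2.14, each overlapping its neighbour. Sdc1 thus passed from the highest of the 9 to the fourth, and Cr2 from the fourth to the next after Pou2af1.

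Genes whose log2 CPM followed a member most closely over the 6 libraries were read from 13663 genes of at least 1 CPM. The 2 nearest had Pearson r between 0.991 and 0.9998, as a description of 6 points that share depth and fall into the 2 genotypes. The cyclin gene Ccnj was among those of Mef2b (r = 0.991). Cr2 had Tbx1 and Klhl14, and Gcsam had Havcr1, also called TIM-1, and the IgM receptor gene Fcmr. Pou2af1 had Rassf3 and the B lineage gene Ly6d, Bcl6 had the integrin gene Itgb3 and Vwa3a, and Mzb1 had Wdr5b and the calcium channel gene Orai1. Prdm1 had Usp4 and Cab39, S1pr2 had Abhd17a and Sergef, and Sdc1 had the ribosomal protein gene Rps14 and Cdc42ep5.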

How the data were processed

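Whole-number gene counts, not normalised, and a table of log2 values were deposited by the authors for 6 libraries. Stranded mRNA libraries were made from homogenised tissue, per the labels' protocols. The submitters' processing notes name DESeq2 1.28.1, STAR 2.5.3a, FastQC 0.11.5 and the build GRCm38 (mm10), with no role for any tool. Which program counted reads, with which strand setting and annotation, is not given in the sources used here. The deposited log2 values equal log2 of counts divided by DESeq2 size factors plus 1 (largest difference 5.2e-14), so they were used only as an alternative.

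Counts were tested with the quasi-likelihood test of edgeR 4.0.16 (R 4.3.3; TMM, default group-wise filter, robust dispersion, genotype alone), with Benjamini-Hochberg adjustment over 17652 genes and a threshold of 0.05. The procedure was tested on simulated data. Each SE was derived from F, by dividing the absolute log2 fold change by its root. Log2 CPM used a prior count of 2. No 2 libraries of a genotype agreed within sampling noise. Replicate numbers follow accession order and pair nothing. Alternatives were other scalings, filters and tools (DESeq2 1.42.0, limma 3.58.1), sex or digestive enzyme level added to the fit, and fits without each library in turn.

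The 9 genes and all gene lists were chosen with earlier results of these data known. Besides the 9, the genes named are up to 4 called genes of smallest p per list, defining markers of a cell type, and the 2 genes most similar to each of the 9. Clu, Sox9, Klk1, Bst2, Upb1, Prox1, Marco, Cd209b, Herpud1, Ascl2, Il4, Ighg1, Ighg2b, Ighg3, Plxnb2 and the other plasma cell genes that fell were named after their values were seen. Exon lengths and overlaps come from GENCODE vM21, and promoters from RefSeq (GRCm38.p6), which matched 8 of the 9 genes (Mzb1 had none). Motifs were searched on both strands. The level of the 9 genes relative to B cell genes is not reported here.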

Additional observations from a re-analysis of the deposited data

How the results depend on the processing

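Bcl6, Cr2, Gcsam, Mzb1 and Pou2af1 kept direction and call in all 16 alternatives, with log2 fold changes of 1.04 to 1.70, 2.67 to 3.86, 2.22 to 3.35, 1.92 to 3.13 and 2.47 to 3.51. The count of the 9 genes called higher was 5 to 7, and the count called lower 0 to 2, when 1 library was left out. Of all genes, 7475 were higher and 2160 lower with library totals only, and 3200 and 2552 with the digestive enzyme level as a covariate. Without 1 library the counts were 3602 to 5125 higher and 2543 to 5032 lower. The cause was not tested. S1pr2 turned to 0.11 with library totals only, which raised the median of all genes by 0.40. A follicular helper T cell gene was called lower in 5 of 16 alternatives. Mef2b kept its direction and lost its call without a count filter (adjusted p = 0.0559) and with the covariate (adjusted p = 0.0611), and its log2 fold change ran from 2.54 to 4.94. Wild-type counts of Mef2b (4 and 6 in replicates 2 and 3) and Mzb1 limit the precision of their folds. No paired analysis was possible because the labels carry no replicate numbers.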

Other observations

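Most genes of lymph node stroma, spleen macrophages and fat were higher in knockout too, and their part in the values of the 9 genes was not tested. Of 11 lymph node stroma genes 7 rose and 1 fell, with a median log2 fold change of 2.16. Those of smallest p were Lyve1, a hyaluronan receptor gene of lymphatic vessels, Ltb, Ccl19 and Pdpn, the last of which fell. Lyve1 stood at 81.4, 34.4 and 51.3 CPM in the wild-type animals against 280, 248 and 221 CPM in the knockouts (log2 fold change 2.16, SE 0.322, edgeR adjusted p = 0.00403). Prox1, also a gene of lymphatic vessels, was not called, with overlapping groups (log2 fold change 0.13, SE 0.212, edgeR adjusted p = 0.621). Of 12 spleen and marginal zone genes 9 were tested and 7 rose, with a median of 2.11. Vcam1, Siglec1, Cd5l and Spic were those of smallest p. The marginal zone macrophage receptor genes Marco and Cd209b also rose (log2 fold changes 3.76 and 3.96, SE 1.16 and 1.05, edgeR adjusted p = 0.0379 and 0.0236). Both calls were lost without WT replicate 3, KO replicate 1 or KO replicate 2 (edgeR adjusted p up to 0.1145 and 0.0857). Tlx1 and Nkx2-5, transcription factor genes of spleen formation, were too low to be tested, and Nkx2-5 had no count in any knockout library. All 10 fat cell genes rose, with a median of 3.38 and a summed level of 1075 to 2065 CPM in wild type and 11001 to 14788 CPM in knockout.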
